A study of Mus musculus with 14 samples.

Results

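CD8 and cytotoxic effector genes were followed across mouse mammary tumors that had or had not received nicotinamide. The 9 genes are *Cd8a* and *Cd8b1*, which encode the chains of the CD8 co-receptor, *Gzma*, *Gzmb* and *Gzmk* (granzymes), *Prf1* (perforin), *Nkg7* (a granule membrane protein), *Ifng* (interferon gamma) and *Fasl* (Fas ligand). They were chosen by gene symbol, 1 row of the expression table per gene, and amount to 9 of the 56414 genes listed. Bulk RNA-seq of whole tumors was used, with 1 library per tumor, and the samples are labelled as separate tumors. M/D-driven tumors arose in C57Bl/6 mice that carried a 50 mg medroxyprogesterone acetate (MPA) pellet, implanted at 6 to 9 weeks of age in females, and took 6 gavages of 7,12-dimethylbenz[a]anthracene (DMBA, 200 µL at 5 mg mL−1). AT3 tumors grew in C57Bl/6 hosts from subcutaneously injected cells of the AT3 line, a mouse mammary carcinoma line, so that all AT3 tumors share a single cell line whereas each M/D-driven tumor arose on its own. Animals were randomized once a tumor measured 0.25 cm2. The treated groups then drank water with 0.5% nicotinamide (NAM) for 10 days, whereas the untreated groups received no agent. Both M/D groups therefore carry MPA and DMBA, and neither AT3 group does. The M/D-driven tumors numbered 4 without and 4 with NAM, and the AT3 tumors 3 without and 3 with NAM.

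Cytotoxic T cells and natural killer (NK) cells kill targets along a pair of routes. In the first, perforin and granzymes are stored in granules, and perforin opens the way for granzymes into the target, where these proteases start cell death. In the second, Fas ligand on the killer cell engages Fas on the target and activates caspases. Interferon gamma is secreted by the same cells and acts on tumor and myeloid cells, among others by raising antigen presentation and the chemokines that attract further T cells. CD8 alpha is also carried by some dendritic cells, and granzymes are made by mast cells and other cells too.

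Reads recovered from the deposited values amounted to 40936868 to 84178009 per tumor. NAM-treated M/D-driven tumor 1 stood apart from the rest. Its summed normalized count over 5 B cell markers was 190600, against 99.9 to 1729 in the 7 other M/D-driven tumors, and over 7 epithelial markers it was 7047, against 250200 to 1013000. The labels also place it in experiment 2, whereas the 7 other M/D-driven tumors belong to experiment 1. Results on M/D-driven tumors are therefore given with and without it. AT3 tumors form experiment 3, so that model and experiment cannot be told apart. In bulk tumor RNA, fewer cells of a type and less RNA per cell cannot be told apart either.

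On the mm10 assembly, *Cd8a* (GSMG0032048, chr6:71373427-71379173) and *Cd8b1* (GSMG0032047, chr6:71322787-71337484) are neighbours on the plus strand, and *Gzma* (GSMG0011141, chr13:113093825-113100983) and *Gzmk* (GSMG0011142, chr13:113171608-113225908) are neighbours on the minus strand. *Gzmb* (GSMG0012449) lies at chr14:56258838-56262260 on the minus strand, at the edge of a group of 7 granzyme genes that spans 145 kb. The other genes lie at chr10:61297836-61304263 (*Prf1*, GSMG0003051, plus strand), chr7:43437073-43438248 (*Nkg7*, GSMG0034388, plus strand), chr10:118441045-118445894 (*Ifng*, GSMG0003583, plus strand) and chr1:161780689-161788495 (*Fasl*, GSMG0002320, minus strand). The span of *Gzmk* covers *Esm1* on the opposite strand, and that of *Ifng* overlaps Gm49751 on the same strand. As the counting is not stated to use strand, reads of *Gzmk* and *Esm1* cannot be told apart where they overlap.

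Levels of different genes were set side by side per length, as RPKM, that is reads per kilobase of the longest annotated transcript scaled to library size. On this scale, *Nkg7* had the highest mean level of the 9 genes in untreated M/D-driven tumors, at 16.4 ± 8.81 (SD, n = 4). The CD8 chains followed, at 4.86 ± 2.84 for *Cd8a* and 4.13 ± 2.49 for *Cd8b1*, then *Gzma* at 3.52 ± 1.96 and *Gzmb* at 2.15 ± 0.673. *Gzmk*, *Ifng*, *Prf1* and *Fasl* were lowest, at 1.24, 0.978, 0.833 and 0.777. In untreated AT3 tumors the order differed, with *Gzma* (4.88 ± 3.26, SD, n = 3) and *Nkg7* (4.78 ± 3.72) at the top, *Gzmb* (1.58 ± 0.785) and *Cd8a* (1.35 ± 1.54) next, and *Fasl* (0.223) and *Gzmk* (0.215) at the bottom. The ranges of mean ± SD of neighbours in these orders overlap. Reads were counted on constitutive regions only, whose part of the transcript length may differ between genes, so that these orders are approximate.

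The CD8 chains varied widely within every group. In untreated M/D-driven tumors 1 to 4, the normalized count of *Cd8a* was 1540, 677, 925 and 422. In NAM-treated M/D-driven tumors 1 to 4 it was 306, 732, 723 and 2816. Treated tumors thus hold both the lowest and the highest value, and the groups overlap, with a log2 fold change (NAM minus untreated) of 0.04 (standard error 0.67, 95% interval −1.49 to 1.58, adjusted p = 0.99 by limma). *Cd8b1* gave 647, 301, 309 and 182 in untreated and 131, 346, 235 and 757 in treated M/D-driven tumors. Its order of tumors was close to that of *Cd8a*, and its log2 fold change was −0.11 (standard error 0.59, interval −1.45 to 1.23). In AT3 tumors, *Cd8a* stood at 133, 39.6 and 599 without and at 406, 232 and 71.0 with NAM. Untreated AT3 tumors spanned a 15.1-fold range, within which all 3 treated tumors fell, and the log2 fold change was 0.35 (standard error 0.93, interval −1.75 to 2.46). *Cd8b1* gave 34.8, 21.3 and 128 without and 107, 57.4 and 17.35 with NAM, so that treated tumor 3 was the lowest of the model and the others fell within the untreated range, at a log2 fold change of 0.06 (interval −1.74 to 1.85).

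**Figure D1:**
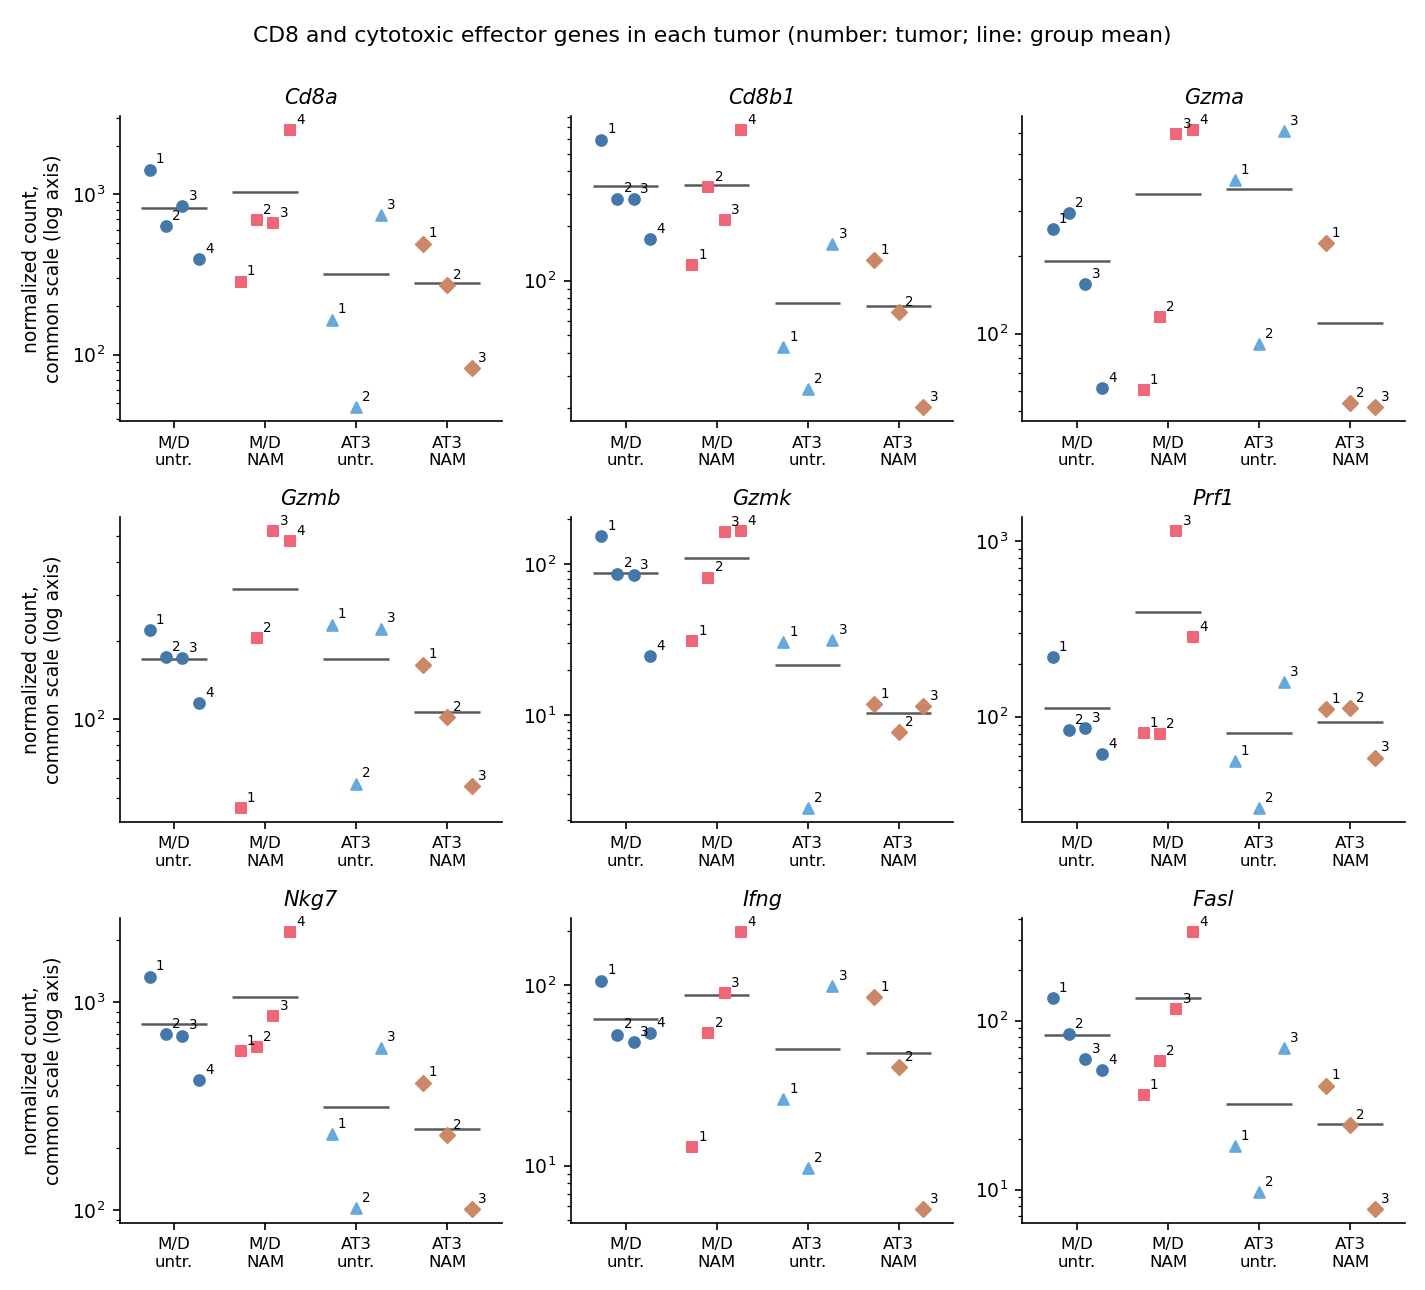
Normalized counts of the 9 genes in each of the 14 tumors, on a scale common to both models and a log axis, by model and treatment. Points carry the tumor number and lines are group means. NAM-treated M/D-driven tumor 4 and untreated AT3 tumor 3 lead their models for most genes, and treated and untreated tumors overlap for every gene.

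Among the granule proteins, *Prf1* had the largest difference in M/D-driven tumors, carried by 1 tumor. Untreated tumors 1 to 4 had normalized counts of 236, 89.1, 93.9 and 65.99. Treated tumors 1 to 4 had 86.6, 84.0, 1238 and 319. Treated tumors 1 and 2 thus lie within the untreated range, whereas tumor 3 lies far above every other tumor of the series. The log2 fold change was 1.11 (standard error 0.88, interval −0.90 to 3.12, adjusted p = 0.80 by limma) with all tumors and 0.31 without tumor 3. In AT3 tumors, *Prf1* stood at 44.9, 25.4 and 126 without and at 91.1, 96.0 and 50.4 with NAM, a log2 fold change of 0.52 (interval −0.79 to 1.84). All treated values lie between the lowest and the highest untreated value.

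*Gzmb*, which encodes a protease that cleaves caspases in the target, stood at 238, 184, 187 and 124 in untreated M/D-driven tumors. Treated tumors 1 to 4 gave 49.2, 217, 571 and 540. The 4 untreated tumors were close to each other, with a coefficient of variation of 25.5%, whereas treated tumors spread over an 11.6-fold range on both sides of them. The log2 fold change was 0.43 (standard error 0.75, interval −1.28 to 2.14). In AT3 tumors, *Gzmb* gave 185.5, 47.7 and 179 without and 134, 87.5 and 47.9 with NAM, with a log2 fold change of −0.50 (interval −1.82 to 0.83). All 3 treated tumors lie inside the untreated range.

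*Gzma*, a tryptase of the same granules, gave 275, 312, 170.5 and 65.99 in untreated and 64.5, 123, 647 and 692 in treated M/D-driven tumors. Treated tumors 3 and 4 are above all untreated tumors, whereas tumor 1 is the lowest of the model, and the log2 fold change was 0.47 (interval −1.52 to 2.46). In AT3 tumors, *Gzma* stood at 317, 76.1 and 493 without and at 185, 46.1 and 44.6 with NAM. Treated tumors 2 and 3 are below all untreated tumors, but tumor 1 is not. The log2 fold change of −1.64 (standard error 0.75, interval −3.34 to 0.05, adjusted p = 0.21 by limma) is the largest of the 9 genes in either model, and it missed the threshold. The exact two-sided permutation test of these 6 tumors gave p = 0.20, where 0.10 is the smallest value that 3 against 3 allow. *Gzmk*, which marks memory-like CD8+ T cells among others, ranged from 26.6 to 166 in untreated and from 33.1 to 187 in treated M/D-driven tumors, and from 2.03 to 25.2 and 6.58 to 9.91 in AT3 tumors. Its counts in AT3 tumors rest on 2 to 31 reads per tumor.

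*Nkg7*, required for efficient granule release, gave 1435, 751, 756 and 453 in untreated M/D-driven tumors. Treated tumors gave 626, 644, 934 and 2444, of which only tumor 4 exceeds the untreated range. The log2 fold change was 0.33 (standard error 0.51, interval −0.84 to 1.5), and −0.14 (interval −1.63 to 1.34) in AT3 tumors, where *Nkg7* ranged from 86.3 to 488 without and from 87.6 to 339 with NAM. For *Ifng*, untreated M/D-driven tumors had 114, 56.5, 52.6 and 57.9, and treated tumors had 13.6, 57.2, 98.5 and 221. Tumors 1 and 4 of the treated group are thus the lowest and the highest of the model, at a log2 fold change of −0.04 (interval −1.85 to 1.77). AT3 tumors gave 18.8, 8.12 and 79.8 without and 70.5, 30.1 and 4.96 with NAM, a log2 fold change of −0.05 (interval −2.38 to 2.29). *Fasl* ranged from 54.7 to 147.5 and from 39.0 to 377 in untreated and treated M/D-driven tumors, and from 8.12 to 55.4 and from 6.61 to 34.02 in AT3 tumors, with log2 fold changes of 0.32 (interval −1.30 to 1.95) and −0.15 (interval −2.03 to 1.72).

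The question of these comparisons was whether 10 days of NAM went with other levels of CD8 and effector transcripts. Genes were called where limma gave an unadjusted p no higher than 0.05 with a change of 1.5-fold or more, after a filter that all 9 genes passed in both models. *Gzmk* passed it in AT3 tumors only through the untreated group, with a mean of 17.3 against 8.74 with NAM. In M/D-driven tumors, 0 of the 9 were called and 0 passed an adjusted p of 0.05, where 6.22% of all 21700 genes tested were called. Of these 21700 genes, 1 passed an adjusted p of 0.05. In AT3 tumors 0 of the 9 were called, against 23.1% of 19281 genes, of which 2358 were higher and 2100 lower (1459 and 3492 under upper-quartile scaling). The lowest unadjusted p of the 9 genes was 0.24 and 0.056, respectively, so that none lay at or under 0.05. With edgeR on recovered reads 0 of the 9 were called in each model, whereas DESeq2 called *Prf1* in M/D-driven tumors (log2 fold change 1.82, adjusted p = 0.40) and *Gzma* in AT3 tumors (−1.66, adjusted p = 0.096). In M/D-driven tumors DESeq2 called 1287 of all genes higher, against 658 by limma. In AT3 tumors, 1300 to 2702 of all genes were called higher and 1303 to 3492 lower over the settings that keep all tumors. Treated and untreated values overlapped for all 9 genes in both models, while no overlap was seen for 4.43% of all genes in the M/D-driven model and for 22.6% in AT3. The median log2 fold change of the 9 genes was 0.33 in M/D-driven tumors, with 7 of 9 above 0 and a median over all genes of 0.01, and −0.14 in AT3 tumors, with 3 of 9 above 0 and a median over all genes of −0.05. For *Cd8a* the interval ran from 0.356-fold to 2.98-fold in M/D-driven and from 0.296-fold to 5.52-fold in AT3 tumors, and changes within it were not detectable with this number of tumors.

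**Figure D2:**
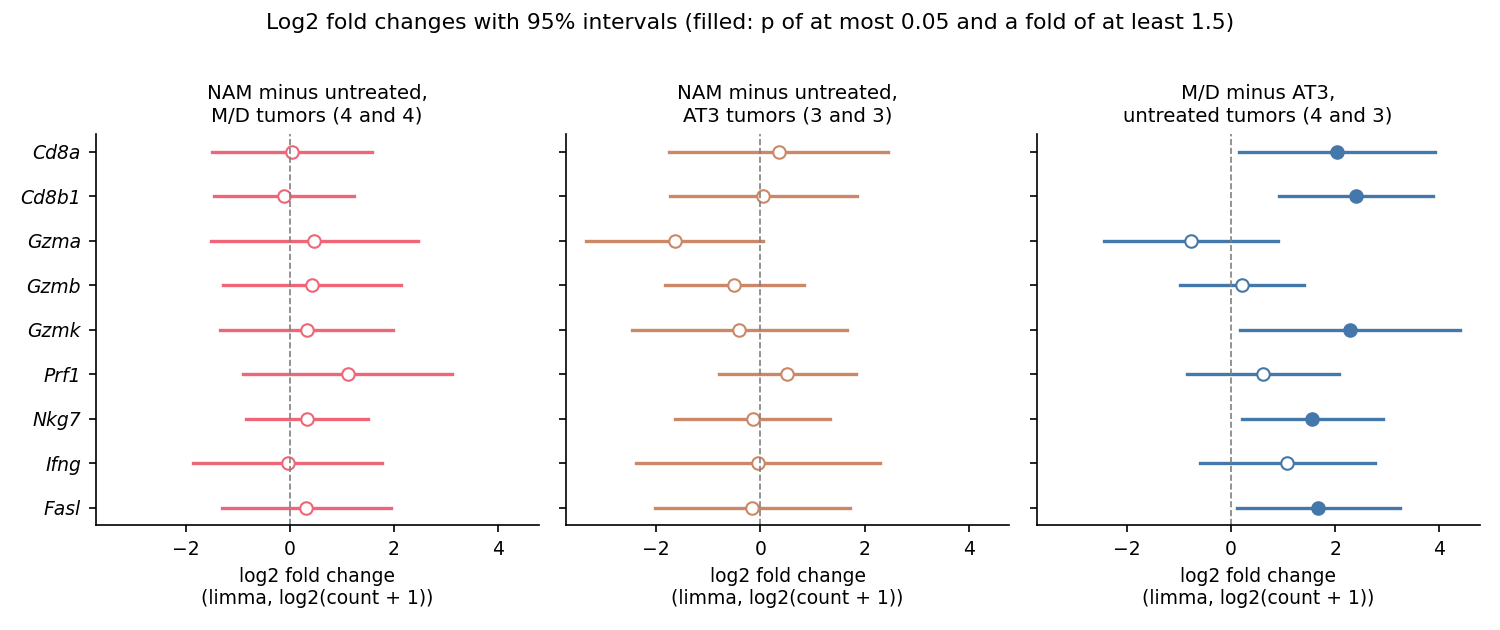
Log2 fold changes of the 9 genes with 95% intervals from limma, for NAM against untreated tumors in each model and for untreated M/D-driven against untreated AT3 tumors. Filled points were called. For NAM every interval includes 0, and 5 genes were called higher in untreated M/D-driven tumors.

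Within experiment 1, that is without NAM-treated M/D-driven tumor 1, the log2 fold changes of all 9 genes were positive, from 0.29 for *Cd8b1* to 1.58 for *Prf1*, with a median of 0.79 (0.00 over all genes). *Cd8a* stood at 0.52, *Nkg7* at 0.54, *Ifng* at 0.68, *Fasl* at 0.79, *Gzmk* at 0.85 and *Gzma* at 1.11. *Gzmb* was called higher, at 1.18 (adjusted p = 0.81 by limma), which makes 1 of 9 genes where 5.17% of all genes tested were called. Of the 3 remaining treated tumors, 2 lie above the untreated range of *Gzmb* and the other lies within it. Without NAM-treated tumor 4, 6 of the 9 genes were below 0. *Cd8a* stood at −0.55, *Cd8b1* at −0.56, *Ifng* at −0.62, *Fasl* at −0.29, *Nkg7* at −0.11, *Gzma* at −0.03 and the median of the 9 genes at −0.11, whereas *Prf1* (0.96), *Gzmb* (0.04) and *Gzmk* (0.03) were above 0. In AT3 tumors, untreated tumor 2 had the lowest value of 5 of the 9 genes, and without it 3 genes were called lower, namely *Gzma* (−2.43, adjusted p = 0.048), *Gzmb* (−1.13, adjusted p = 0.11) and *Gzmk* (−1.43, adjusted p = 0.097), where 35.7% of all genes were called and those called lower numbered 3310 against 2100. The median of the 9 genes was then −0.74. As *Gzmk* passed the filter only through the untreated group, and the tumor left out holds 2 reads of it, nothing is drawn from its call. Without untreated AT3 tumor 3, which held the highest value of 8 genes, *Prf1* was called higher (1.15, adjusted p = 0.37) beside 13.4% of all genes called, *Gzma* stood at −1.09 and the median was 0.59. Without NAM-treated AT3 tumor 1 *Gzma* was called lower (−2.31, adjusted p = 0.064), beside 33.2% of all genes called. With the trend in transcript length and GC content removed, *Gzma* stood at −0.84 (adjusted p = 0.34) and the median of the 9 genes in AT3 tumors at 0.35.

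**Figure D3:**
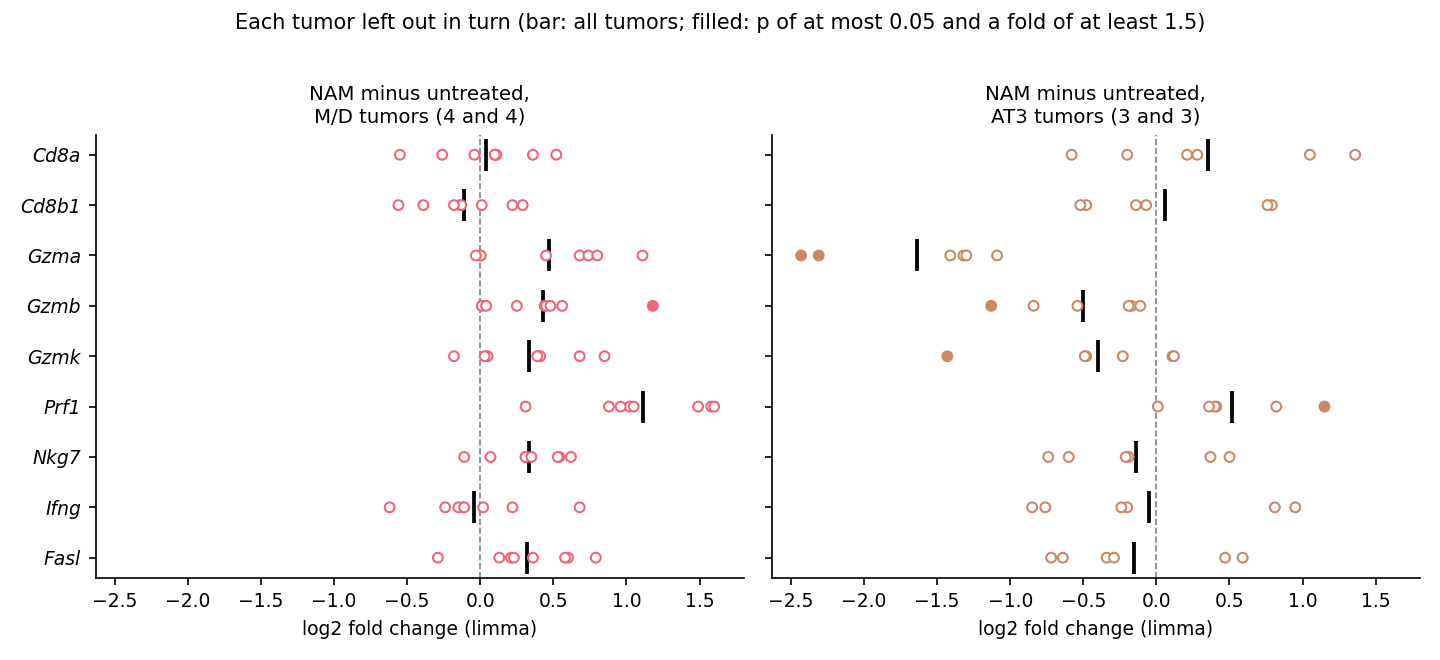
Log2 fold change of each gene between NAM-treated and untreated tumors by limma, with all tumors (bars) and with each tumor left out in turn (circles, filled where called). *Gzma* in AT3 tumors, *Gzmb* and *Prf1* in M/D-driven tumors and *Gzmb* and *Prf1* in AT3 tumors keep their sign whichever tumor is left out, whereas the circles of the other genes lie on both sides of 0.

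The effect of NAM was also compared between models by an interaction term over the 14 tumors (effect in M/D-driven minus effect in AT3 tumors). Of the 9 genes 0 were called by limma, against 14.9% of 22710 genes tested, and the lowest unadjusted p was that of *Gzma*. Its difference of 2.11 on the log2 scale had a standard error of 1.31 (interval −0.70 to 4.93, adjusted p = 0.44). The 8 other differences ranged from −0.31 for *Cd8a* to 0.92 for *Gzmb*, with a median over the 9 genes of 0.48, against 0.04 over all genes. *Gzma* was called without NAM-treated M/D-driven tumor 1 (2.75, adjusted p = 0.27), without untreated AT3 tumor 2 (2.90, adjusted p = 0.25) and by DESeq2 (2.60, adjusted p = 0.21). With single tumors left out, 873 to 2242 of all genes were called higher and 965 to 2461 lower, and DESeq2 called 2463 higher.

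Untreated tumors of the models were compared on a common scale, as each model had been normalized apart. Both CD8 chains were called higher in M/D-driven tumors, *Cd8b1* in every setting run and *Cd8a* not. *Cd8b1* stood at 598, 283, 282 and 169 in untreated M/D-driven and at 43.2, 25.4 and 158 in untreated AT3 tumors, with no overlap between groups. Its log2 fold change was 2.4 (standard error 0.65, interval 0.92 to 3.88, adjusted p = 0.015 by limma), or 5.27-fold. It is the single gene of the 9 that passed an adjusted p of 0.05, which 11121 of all 21713 genes tested passed. *Cd8a* stood at 1422, 636, 846 and 392 against 165, 47.2 and 743, so that AT3 tumor 3 reached the M/D range, at a log2 fold change of 2.03 (interval 0.15 to 3.91, adjusted p = 0.067). The call of *Cd8a* was lost with upper-quartile scaling (1.54, adjusted p = 0.14), edgeR (1.44, adjusted p = 0.18), DESeq2 (1.37, adjusted p = 0.11) and the trend with transcript length and GC content removed (1.65, adjusted p = 0.11). Also called higher in M/D-driven tumors were *Gzmk* (2.29, interval 0.18 to 4.39, adjusted p = 0.066), *Fasl* (1.68, interval 0.12 to 3.25, adjusted p = 0.068) and *Nkg7* (1.56, interval 0.22 to 2.91, adjusted p = 0.052). These 5 of 9 genes stand beside 30.1% of all 21713 genes tested that were called higher in M/D-driven tumors, 56.5% called in either direction and 53.8% without overlap, and the median of the 9 genes was 1.56 against 0.04 over all genes.

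The remaining effector genes had intervals that include 0. *Gzmb* gave 169.6 ± 42.7 (SD, n = 4) in untreated M/D-driven and 169.7 ± 97.8 (SD, n = 3) in untreated AT3 tumors on the common scale, a log2 fold change of 0.21 (interval −0.98 to 1.40). *Prf1* stood at 112 ± 71.2 against 80.8 ± 66.8, a log2 fold change of 0.61 (interval −0.84 to 2.07), and *Ifng* at 65.1 ± 27.0 against 44.0 ± 48.1, with 1.08 (interval −0.60 to 2.77). *Gzma* was the 1 gene with a negative value, at 191 ± 104 against 365 ± 262 and a log2 fold change of −0.77 (interval −2.44 to 0.90). Over the 4 groups on this scale, mean *Cd8a* ran from 1037 ± 997 in NAM-treated and 824 ± 440 in untreated M/D-driven tumors to 318 ± 372 in untreated and 282 ± 205 in NAM-treated AT3 tumors, an order in which SDs of neighbours overlap. The calls moved with single tumors. Only *Cd8b1* was called without untreated M/D-driven tumor 1, and 3 of the 9 genes were called without M/D-driven tumor 2 or 3. Without untreated AT3 tumor 1 there were 2 calls, and without AT3 tumor 2 there were also 2, *Cd8b1* higher and *Gzma* lower. Without AT3 tumor 3 there were 6, with *Ifng* added. In these fits, 5792 to 6853 of all genes were called higher and 5101 to 5798 lower. Nothing particular to the 9 genes is drawn from these counts. On recovered reads edgeR called 2 and DESeq2 3 of the 9 genes. Over the settings that keep all tumors, 3972 to 8402 of all genes were called higher and 3827 to 8370 lower.

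Log2 ratios of count + 1 were taken within each tumor, where the size factor nearly cancels. They are not corrected for length and compare tumors, not genes. *Cd8a* over *Cd3e*, the latter a chain of the T cell receptor complex, was similar in all M/D-driven tumors, at log2 ratios of 1.29 to 1.72 in untreated and 1.32 to 1.86 in treated tumors (difference 0.09, exact permutation p = 0.46). *Cd8a* over *Cd4* was 0.52 to 1.91 in untreated M/D-driven tumors. In treated tumors 1 to 4 it was −2.62, 1.67, 1.46 and 1.26, so that tumor 1 alone lay below 0, with 1885 normalized counts of *Cd4*. *Prf1* over *Cd8a* stood at −2.70, −2.91, −3.29 and −2.66 in untreated and at −1.81, −3.11, 0.78 and −3.14 in treated M/D-driven tumors. Treated tumor 3 thus lay above all other M/D-driven tumors, and *Gzmb* over *Cd8a* was highest in the same tumor, at −0.34. For the 5 ratios tested in each model, exact permutation p values were at least 0.37 in M/D-driven tumors (0.63 after adjustment over 5 ratios) and at least 0.40 in AT3 tumors (0.88 or more after adjustment), with 0.029 and 0.10 as the smallest p allowed.

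Between untreated tumors of the models, the same ratios were compared after their values had been seen. *Gzmb* over *Cd8a* was −2.69, −1.88, −2.30 and −1.76 in M/D-driven and 0.47, 0.26 and −1.74 in AT3 tumors. The groups do not overlap, by a margin of 0.02, and the mean log2 ratio was 1.82 lower in M/D-driven than in AT3 tumors. For *Prf1* over *Cd8a*, all M/D-driven tumors had −2.66 or less and all AT3 tumors −2.24 or more. Both ratios gave an exact permutation p of 0.029, the smallest that 4 against 3 allow, or 0.071 after adjustment over 5 ratios. *Cd8b1* over *Cd8a* (p = 0.40), *Cd8a* over *Cd3e* (p = 0.66) and *Cd8a* over *Cd4* (p = 0.74, all by the exact permutation test) overlapped between models.

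The genes did not all vary together from tumor to tumor. On log2 values within M/D-driven tumors, *Cd8a* and *Cd8b1* had r = 0.97 (exact permutation p = 0.00042, rho = 0.95 with p = 0.0011, n = 8), with adjusted p = 0.0034 and 0.0088 over 8 relations. This r was 0.93 without the 2 tumors farthest from the median of *Cd8a* and 0.95 within experiment 1. In AT3 tumors it was 0.96 (exact permutation p = 0.0083, rho = 0.94 with p = 0.017, n = 6, adjusted p = 0.022 and 0.045). *Prf1* followed *Cd8a* in AT3 tumors (r = 0.94, exact permutation p = 0.0083, rho = 0.89 with p = 0.033, n = 6, adjusted p = 0.022 and 0.053). Without the 2 farthest tumors this r was 0.82 over 4 tumors, with an exact permutation p of 0.33. In M/D-driven tumors the same pair gave r = 0.44 and rho = 0.60 (exact permutation p = 0.27 and 0.13, n = 8, adjusted p = 0.27 and 0.15), or 0.29 without the 2 farthest tumors and 0.38 within experiment 1.

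For *Cd8a* and *Gzmb*, M/D-driven tumors gave r = 0.76 and rho = 0.74 (exact permutation p = 0.03 and 0.046, n = 8, adjusted p = 0.06 and 0.061). The relation rests on NAM-treated tumors 1 and 4, as r was 0.31 without them and 0.61 within experiment 1. AT3 tumors gave r = 0.78 and rho = 0.66 (exact permutation p = 0.076 and 0.17, n = 6, adjusted p = 0.10 and 0.17) and 0.53 without the 2 farthest. *Prf1* and *Nkg7* had r = 0.58 but rho = 0.90 in M/D-driven tumors (exact permutation p = 0.14 and 0.0046, n = 8, adjusted p = 0.16 and 0.018), and r was 0.97 once NAM-treated tumors 3 and 4 were left out and 0.56 within experiment 1. In AT3 tumors this pair gave r = 0.85 and rho = 0.89 (exact permutation p = 0.04 and 0.033, n = 6, adjusted p = 0.064 and 0.053), and 0.63 without the 2 farthest.

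**Figure D4:**
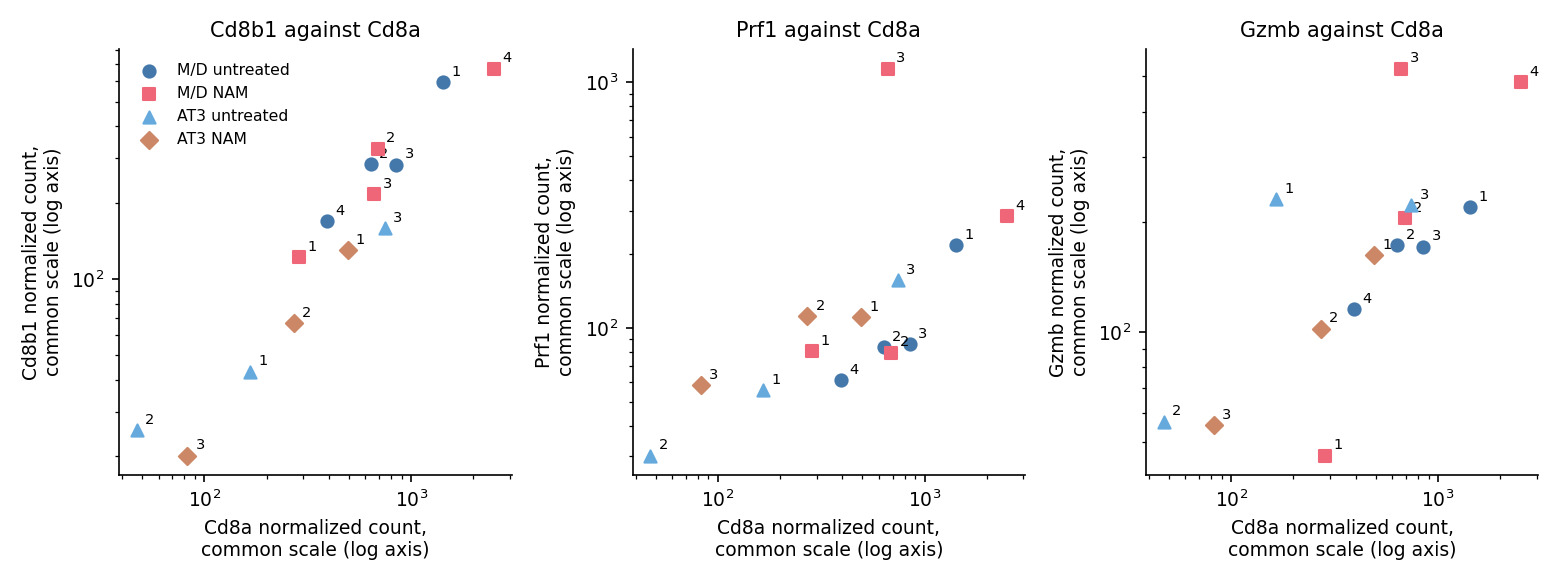
*Cd8b1*, *Prf1* and *Gzmb* against *Cd8a* in the 14 tumors, as normalized counts on the common scale and log axes, with the tumor number beside each point. *Cd8b1* follows *Cd8a* from tumor to tumor, whereas *Prf1* in NAM-treated M/D-driven tumor 3 (1137) lies far above the other tumors.

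As a description over all 14 tumors, after subtraction of group means, the 9 genes had pairwise r of 0.53 to 0.97, highest for *Cd8a* with *Cd8b1* and with *Nkg7* and lowest for *Cd8b1* with *Prf1*. Of 18271 genes compared, those most like *Cd8a* were *Cxcr6*, a chemokine receptor of tissue T cells (r = 0.97), and *Cd3g* and *Cd3d*, further chains of the T cell receptor complex (0.96 each). *Ifng* was most like *Cxcl9* (0.97), *Cxcl11* and *Iigp1* (0.96 each), all known to be induced by interferon gamma. *Prf1* was most like *Azgp1* (0.93), *Tspan15* (0.86) and *Pradc1* (0.84), and *Gzmb* was most like *1810062G17Rik*, *Pecr* and *Amz2* (0.94 each). These values share library and size factor and carry no test. They include NAM-treated M/D-driven tumor 1 and were not taken without it.

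Promoters were searched for 3 motifs of factors that act in cytotoxic lymphocytes, on both strands. TTCNNNGAA is bound by STAT factors, TGTGGT by RUNX factors and TCACACC by T-box factors such as T-bet and eomesodermin, and no match overlapped another in the member windows. RefSeq windows of 300 bases (250 before and 50 from the start of transcription, GRCm38.p6) were at hand for 8 of the 9 genes. TTCNNNGAA was found in *Gzmb*, *Nkg7* and *Ifng*, and in 8.30% of all 32851 promoters. TGTGGT was found in *Gzma*, *Gzmb*, *Prf1* and *Nkg7* (16.8% of all promoters), and TCACACC in *Gzmk* and *Nkg7* (3.98%). The windows of *Cd8a* and *Fasl* held none of them. The windows of *Nkg7* and *Gzmb* had the most matches, 3 each, and are shown with the matches in capitals, read 5′ to 3′ on the strand of the gene.
Nkg7, chr7:43436888-43437187, plus strand: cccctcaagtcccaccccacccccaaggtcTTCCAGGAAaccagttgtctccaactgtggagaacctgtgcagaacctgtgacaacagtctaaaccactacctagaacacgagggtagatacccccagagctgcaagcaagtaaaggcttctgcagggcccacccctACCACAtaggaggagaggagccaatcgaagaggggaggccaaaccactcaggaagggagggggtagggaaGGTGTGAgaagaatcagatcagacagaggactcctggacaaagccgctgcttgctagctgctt
Gzmb, chr14:56262285-56262584, minus strand: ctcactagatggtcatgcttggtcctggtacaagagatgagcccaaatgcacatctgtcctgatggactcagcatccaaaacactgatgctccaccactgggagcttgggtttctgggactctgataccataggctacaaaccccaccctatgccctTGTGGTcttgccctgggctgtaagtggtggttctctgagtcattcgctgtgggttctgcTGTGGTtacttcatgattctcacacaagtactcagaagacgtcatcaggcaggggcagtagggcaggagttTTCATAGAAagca
In *Nkg7* the TGTGGT and TCACACC matches are on the opposite strand, and appear as ACCACA and GGTGTGA. Both TGTGGT matches of *Gzmb* are on the shown strand, while its TTCNNNGAA match lies downstream of the RefSeq start. That start lies 74 bases upstream of the 5′ end of the *Gzmb* locus given above, so that the window is wholly outside this locus. For *Gzmk* the RefSeq start lies 44943 bases inside its locus, and for *Nkg7* 65 bases. A match to these letters is a description of the window and shows no binding.

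Further granule genes were described by a list of 18 genes. Counts of called genes in this and the following lists stand beside 6.22% of all genes called for NAM in M/D-driven tumors, 23.1% in AT3 tumors and 56.5% between untreated tumors of the models, and nothing particular to a list is drawn from them. Of 17 tested in M/D-driven tumors, 1 was called higher and 1 lower, with a median log2 fold change of −0.04. *Cst7*, an inhibitor of the cathepsins that activate granzymes, rose by limma (1.16, standard error 0.39, adjusted p = 0.73), and *Serpinb9b*, of the family of granzyme inhibitors, fell by 2.97 on the log2 scale. Without NAM-treated tumor 1, *Cst7* (1.00) was still called, *Serpinb9b* (−2.72) was not, and *Gzmc* was called higher (2.14, adjusted p = 0.81 by limma), with a list median of 0.02. In AT3 tumors 1 of 17 was lower, *Gzmc* (−0.87), whose call was lost once the trend with transcript length and GC content was removed (−0.20), and the median was −0.57. With that trend removed, 2 other genes of the list were called lower, *Unc13d* (−1.01, against −0.57) and *Stx11* (−0.71, against −0.42). The list median was then −0.15. Between untreated tumors, 5 were higher and 5 lower in M/D-driven than in AT3 tumors, or 4 and 7 with that trend removed. The largest differences were those of *Gzmg*, listed at 0 in every untreated M/D-driven tumor and at 5.80 to 16.3 normalized counts in untreated AT3 tumors, of *Gzmd* (−3.01, standard error 0.50, adjusted p = 0.0017 by limma) and of *Stx11*, a syntaxin needed for granule release, which was higher in M/D-driven tumors (2.19, standard error 0.37, adjusted p = 0.0019 by limma). *Gzmg* passed the filter only through the AT3 group, so that nothing is drawn from its call.

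These granzyme genes lie next to *Gzmb*, and they were looked at by tumor after their values had been seen. NAM-treated M/D-driven tumor 3, the tumor with the most *Prf1*, had normalized counts of 2425 for *Gzmc*, 2645 for *Gzmd*, 1177 for *Gzme*, 3791 for *Gzmf* and 2348 for *Gzmg*. Untreated M/D-driven tumors had at most 208, 18.0, 81.3, 6.44 and 0.00, and NAM-treated tumor 2 had 452, 257, 469, 0.00 and 1.22. Treated tumor 1 was at 0 for all 5 genes, as was treated tumor 4 for 4 of them, with 157 for *Gzmc*. *Gzmb* itself was 571 in tumor 3 and 540 in tumor 4, so that high *Gzmb* and high *Gzmc* to *Gzmg* went together in tumor 3 but not in tumor 4. In untreated AT3 tumors, *Gzmc* ranged from 321 to 453 and *Gzmf* from 0.00 to 114.5. These genes are close copies of each other, and the counting could split their reads, so that the share of each is uncertain.

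**Figure D5:**
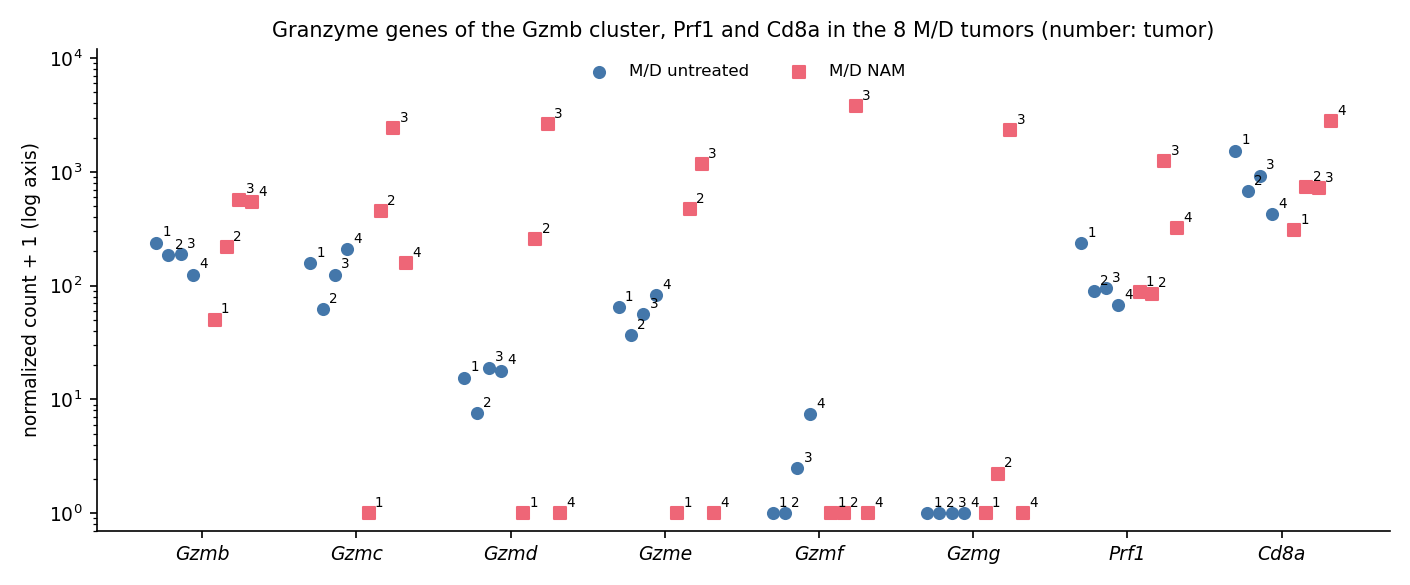
Normalized counts plus 1 on a log axis for *Gzmb*, 5 granzyme genes near it, *Prf1* and *Cd8a* in the 8 M/D-driven tumors, with tumor numbers. NAM-treated tumor 3 has the highest *Gzmc* to *Gzmg* and *Prf1*, whereas NAM-treated tumor 4 has the highest *Cd8a*.

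On the side of the target, 0 of 9 genes of the Fas and caspase list were called in M/D-driven tumors (median −0.06, or 0.01 without NAM-treated tumor 1). In AT3 tumors, *Cflar*, an inhibitor of caspase 8, rose (1.01, standard error 0.35, adjusted p = 0.17 by limma), as did *Tnfrsf10b*, a death receptor (0.64), while *Fas*, the receptor of Fas ligand, fell by 0.79 on the log2 scale, with a list median of 0.23. The calls of these 3 genes were lost once the trend with transcript length and GC content was removed (0.45, 0.57 and −0.22). Between untreated tumors, *Cflar* was higher (1.96) and *Fas* lower (−1.03) in M/D-driven tumors, and *Fadd* was also called lower with that trend removed (−1.25). Of 14 genes of the interferon gamma axis, 0 were called in M/D-driven tumors (median 0.20, or 0.44 without NAM-treated tumor 1). In AT3 tumors 3 of 13 were higher, namely *Ciita*, the regulator of MHC class II genes (1.73, standard error 0.39, adjusted p = 0.17 by limma), *Il12rb2*, a chain of the interleukin 12 receptor (1.14), and *Jak1* (0.76). With the length and GC trend removed, *Il12rb2* stood at 1.15 and was still called, whereas *Ciita* (1.00) and *Jak1* (0.31) were not. Untreated M/D-driven tumors had 6 of 14 higher than AT3 tumors and 0 lower, led by *Il18r1* (4.79), *Ciita* (4.39) and *Ido1* (4.23). *Ido1* passed the filter only through the M/D-driven group, with 0.00 to 4.88 normalized counts in untreated AT3 tumors. Nothing is drawn from its call. With the length and GC trend removed, 5 of the 14 were higher and 3 lower. *Cxcl9*, a chemokine induced by interferon gamma, ranged from 1327 normalized counts in NAM-treated tumor 1, also the lowest for *Ifng*, to 31330 in untreated tumor 1 of the M/D-driven tumors.

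Of 6 transcription factors of effector lymphocytes, 0 were called in M/D-driven tumors (median 0.33). *Runx3*, a driver of the CD8+ fate (1.39, standard error 0.41, adjusted p = 0.17 by limma), and *Prdm1*, a regulator of effector differentiation (1.36), were higher in NAM-treated AT3 tumors (list median 0.13). Their values were 1.03 and 0.88 with the length and GC trend removed, and both were still called. *Tbx21*, which encodes T-bet, was not called in either model (0.45 and −0.13). Without NAM-treated M/D-driven tumor 1, *Runx3* was lower (−1.56, adjusted p = 0.81 by limma) and *Tox* (1.43) and *Id2* (0.89) were higher in treated M/D-driven tumors (list median 0.69). Between untreated tumors, 3 of the 6 were higher in M/D-driven tumors, led by *Runx3* (3.75) and *Prdm1* (2.72), and *Id2* was lower (−4.01). With the length and GC trend removed, 2 were higher and 2 lower, as *Eomes* was then also called lower (−1.85, adjusted p = 0.029 by limma). Several of these genes are also transcribed outside lymphocytes.

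Markers of the cell types that could hold these transcripts were described in the same way. Of 8 T cell markers, 0 were called in either model (medians −0.09 in M/D-driven tumors, or 0.32 without NAM-treated tumor 1, and 0.18 in AT3 tumors), and 7 of 8 were higher in untreated M/D-driven than AT3 tumors, led by *Cd5* (2.67), *Cd4* (2.46) and *Cd3e* (2.31). *Cd3e* ranged from 172 to 470 in untreated and from 87 to 777 in treated M/D-driven tumors, and from 22 to 101 in AT3 tumors. Of 6 NK cell markers, all had positive values in M/D-driven tumors (median 1.07), and *Klrb1c* (1.97) and *Klrd1* (1.18) were called higher. Their summed count was 336 to 1074 in untreated and 764 to 2283 in treated M/D-driven tumors, the highest being tumor 1, where *Klrb1c* stood at 1696 and *Ncr1* at 27. Without that tumor *Klrb1c* was still called (1.27, adjusted p = 0.81 by limma) and *Klrd1* was not (0.97), with a list median of 1.17. In AT3 tumors 0 of 6 were called (median −0.04), and 0 of 6 were called between untreated tumors of the models, where *Klrk1* was called with the length and GC trend removed (1.54, adjusted p = 0.06 by limma, against 0.93). The part of these cells in the values of the 9 genes was not tested.

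Markers of mast cells, which make granzymes too, were not called in either model (0 of 5 and 0 of 4, medians 0.55 and 0.17). Their summed count was 173 to 3816 in untreated and 413 to 2224 in treated M/D-driven tumors, with the highest value in untreated tumor 4, which had the lowest value of 3 of the 9 genes. Type 1 dendritic cell markers, among them *Xcr1*, gave 0 of 5 calls in M/D-driven tumors (median −0.44) and 1 of 5 in AT3 tumors (*Tlr3*, 0.66, median 0.12). Plasmacytoid dendritic cell markers gave 0 of 4 and 1 of 4 (*Tcf4*, 1.02). Of B cell markers, 0 of 5 were called in M/D-driven tumors, and *Cd79a* was lower in AT3 tumors (−1.14). Precursor B cell markers gave 0 of 6 calls in M/D-driven tumors, with *Ebf1* higher (1.38) and *Rag1* lower (−0.83) among 5 in AT3 tumors. Macrophage markers gave 0 of 5 calls in M/D-driven tumors and 3 of 5 higher in AT3 tumors (*Adgre1*, 1.05, *Csf1r*, 1.04, and *Mrc1*, 0.82), of which only *Adgre1* (1.01) was called with the length and GC trend removed. Neutrophil markers gave 0 of 4 and 0 of 3 calls (medians −2.04 and −0.69). Epithelial markers gave 0 of 7 calls in M/D-driven tumors (median −1.46), and in AT3 tumors *Cdh1* was higher (0.90) and *Krt19* (−1.24) and *Krt14* (−0.79) lower. With the length and GC trend removed, *Tlr3*, *Tcf4*, *Cd79a*, *Cdh1*, *Krt19* and *Krt14* were no longer called in AT3 tumors. Between untreated tumors, 4 of 5 macrophage, 4 of 7 epithelial, 2 of 5 type 1 dendritic cell and 1 of 3 neutrophil markers were higher in M/D-driven tumors. Of 4 plasmacytoid dendritic cell markers, *Bst2* was lower there (−2.23). Of 5 precursor B cell markers, *Ebf1* was higher (2.52) and *Rag1* lower (−2.43), and mast cell and B cell markers gave 0 of 5 calls each. With the length and GC trend removed, *Cd68* (−0.61) and *Tcf4* (−0.93) were also called lower in M/D-driven tumors and *Retnlg* (1.90) higher. Without NAM-treated tumor 1, 1 epithelial marker, *Cdh1*, was called lower in M/D-driven tumors (−0.74, adjusted p = 0.81 by limma) and the epithelial median was −0.31, while the lists of the other cell types in this paragraph gave 0 calls. Their medians were then 1.0 for mast cell, 0.09 for type 1 dendritic cell, −0.10 for plasmacytoid dendritic cell, −1.03 for B cell (1.73 with all tumors), 0.15 for the 4 precursor B cell markers then tested (2.51 for 6 with all tumors), 0.14 for macrophage and −1.6 for neutrophil markers. The labelled tissue was matched by *Epcam*, at 16170 to 62250 normalized counts in 13 of the 14 tumors and at 932 in NAM-treated M/D-driven tumor 1.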

How the data were processed

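The authors mapped paired 75-base reads to mm10 with STAR 2.4.0, counted them on constitutive gene regions taken from Mouse FAST DB, and scaled the counts within each model by DESeq2 size factors. The deposited values are thus a normalized signal per gene, called normalized count here. Whole reads were recovered for 100% of values (tolerance 0.01). Linear models with a mean-variance trend (limma 3.58.1 in R 4.3.3) were fitted to log2(normalized count + 1), which understates changes of low genes. Genes needed a mean of 10 or more in 1 of the groups compared. A call required an unadjusted p no higher than 0.05 with a change of 1.5-fold or more, and Benjamini-Hochberg p values were taken over all genes tested. Models were compared on reads scaled by median-of-ratios factors over all 14 tumors. Ratios and correlations were tested by exact two-sided permutation (SciPy 1.17.1). p values measure the spread between tumors.

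Named genes are the 9 genes, *Cd3e*, *Cd4*, up to 3 called genes per list with the largest change, and the 3 genes most like *Cd8a*, *Gzmb*, *Prf1* and *Ifng*. *Gzmc* to *Gzmg* by tumor, *Tbx21*, *Cxcl9*, *Ncr1*, *Xcr1*, *Epcam* and the ratios between models were chosen after their values were seen. The 9 genes, the 4 pathway lists and the 10 marker lists were chosen with earlier results of these data known. Rows of *Lck*, *Cpa3*, *Rag1* and *Csf1r* join further symbols. Alternatives were other pseudocounts, filters and scalings, edgeR 4.0.16 and DESeq2 1.42.0 on recovered reads, removal of a trend with transcript length and GC content, a replicate block, and leaving out single tumors. The scripts were tested on simulated data. The result of 1 B cell marker is not reported here.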

Additional observations from a re-analysis of the deposited data

Results flagged for a closer look

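In groups of 4 tumors, a tumor was singled out where its gap to the nearest other tumor, divided by the range of the group, passed Dixon's 95% critical value. For normally distributed values chance singles out about 1 in 20 groups, and 5 of 28 groups tested were singled out here. The genes were tested on normalized counts without a logarithm, which are skewed to high values. The 5 of 28 can therefore not be read as more than chance gives. NAM-treated M/D-driven tumor 4 was the highest of its group for *Cd8a*, at 2816 normalized counts, and for *Nkg7*, at 2444. Untreated M/D-driven tumor 1 was the highest of its group for *Prf1*, at 235.8, and for *Ifng*, at 114.3. The log2 ratio of *Cd8a* to *Cd4* was lowest in NAM-treated M/D-driven tumor 1, at −2.617. These 5 values come from 3 tumors and are not independent.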

How the results depend on the processing

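*Gzmk*, *Ifng* and *Fasl* in AT3 tumors rest on as few as 2, 6 and 8 reads in a tumor. With 3 or 4 tumors a group, the fitted differences of the 9 genes moved with single tumors, and the cause of the changes listed here was not tested unless stated. A tumor left out leaves fewer samples, which by itself widens intervals. Upper-quartile scaling moved the median over all genes by −0.21 in AT3 tumors, 0.11 in M/D-driven tumors, 0.35 for the difference between models and −0.54 between untreated tumors.

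For NAM in M/D-driven tumors, *Ifng* turned from −0.04 to 0.01 with a pseudocount of 5, 0.07 with upper-quartile scaling, 0.43 with edgeR, 0.46 with DESeq2 and 0.07 with the length and GC trend removed, and *Cd8b1* turned to 0.02 with DESeq2 and 0.08 with that trend removed. Genes called higher numbered 658, and 1219 without a filter, 312 with a group mean of at least 50, 992 with edgeR and 1287 with DESeq2. Genes called lower numbered 692, and 1207 with all 14 tumors in 1 fit. Of the 9 genes, DESeq2 called 1. Leaving out single tumors gave 395 to 1201 genes higher, 351 to 1511 lower and 0 to 1 of the 9 genes called. The log2 fold changes then ranged from −0.55 to 0.52 for *Cd8a*, −0.56 to 0.29 for *Cd8b1*, −0.03 to 1.11 for *Gzma*, −0.18 to 0.85 for *Gzmk*, −0.11 to 0.62 for *Nkg7*, −0.62 to 0.68 for *Ifng* and −0.29 to 0.79 for *Fasl*.

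For NAM in AT3 tumors, *Cd8b1* turned to −0.15 with upper-quartile scaling, −0.03 with edgeR and −0.003 with DESeq2, and *Cd8a* to −0.12 with edgeR and −0.09 with DESeq2. With the length and GC trend removed, *Gzmb* turned to 0.07, *Gzmk* to 0.22, *Nkg7* to 0.50, *Ifng* to 0.69 and *Fasl* to 0.31, and 1300 genes were higher and 1303 lower, against 2358 and 2100. Upper-quartile scaling gave 1459 higher and 3492 lower. Of the 9 genes, 1 (*Gzma*) was called without a filter, with upper-quartile scaling and with DESeq2. Over the settings that keep all tumors, 1300 to 2702 of all genes were called higher and 1303 to 3492 lower. Leaving out single tumors gave 904 to 3459 genes higher, 714 to 3310 lower and 0 to 3 of the 9 genes called. The log2 fold changes then ranged from −0.58 to 1.36 for *Cd8a*, −0.52 to 0.79 for *Cd8b1*, −2.43 to −1.09 for *Gzma*, −1.43 to 0.12 for *Gzmk*, −0.74 to 0.50 for *Nkg7*, −0.85 to 0.95 for *Ifng* and −0.72 to 0.59 for *Fasl*.

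Tumors of the same number share only a number. With group means subtracted, same-number tumors correlated by −0.44 to 0.11 in M/D-driven and −0.16 to 0.26 in AT3 tumors. When the number entered the fit as a block, 1 of the 9 genes was called in AT3 tumors, *Gzma* (−1.64, adjusted p = 0.057 by limma), and 0 in M/D-driven tumors, and the block changed no other call of the 9 genes. Over the settings that keep all AT3 tumors, the block among them, 1300 to 2702 of all genes were called higher and 1303 to 3492 lower.

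For the difference of the NAM effect between models, *Ifng* turned to −0.11 with TMM factors and −0.49 with the length and GC trend removed. *Cd8a* turned to 0.03 with upper-quartile scaling, 0.47 with edgeR and 0.51 with DESeq2, and *Cd8b1* to 0.17, 0.04 and 0.09. Genes called higher and lower numbered 1582 and 1795, and 3230 and 942 with upper-quartile scaling. DESeq2 gave 2463 higher and called 1 of the 9 genes, and removal of the length and GC trend gave 946 lower. Leaving out single tumors gave 873 to 2242 genes higher, 965 to 2461 lower and 0 to 1 of the 9 genes called. The differences then ranged from −1.32 to 0.62 for *Cd8a*, −0.90 to 0.41 for *Cd8b1*, −0.22 to 1.10 for *Prf1*, −0.17 to 1.07 for *Nkg7*, −0.99 to 0.80 for *Ifng* and −0.27 to 1.04 for *Fasl*.

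Between untreated tumors, 1 of the 9 genes was called with upper-quartile scaling, 2 with edgeR and 3 with DESeq2, against 5, and 1 to 6 when single tumors were left out. Of all genes, 3972 to 8402 were called higher and 3827 to 8370 lower over the settings that keep all tumors. Leaving out single tumors gave 5792 to 6853 higher and 5101 to 5798 lower. *Gzmb* turned to −0.28 with upper-quartile scaling, −0.0015 with DESeq2, and ranged from −0.45 to 0.55 when single tumors were left out. With the length and GC trend removed, 4 of the 9 genes were called, with a median of 1.65 against −0.34 over all genes, and 3972 genes were higher in M/D-driven tumors, against 6529.

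When single tumors were left out, differences in log2 ratio between NAM-treated and untreated M/D-driven tumors ranged from −0.01 to 0.20 for *Cd8a* over *Cd3e*, −1.28 to 0.15 for *Cd8a* over *Cd4* and −0.09 to 0.67 for *Gzmb* over *Cd8a*. In AT3 tumors they ranged from −0.56 to 0.39 for *Cd8a* over *Cd3e*, −1.87 to 0.38 for *Cd8a* over *Cd4*, −0.58 to 0.10 for *Cd8b1* over *Cd8a* and −0.24 to 0.59 for *Prf1* over *Cd8a*. Between untreated tumors of the models they ranged from −0.81 to 0.14 for *Cd8a* over *Cd3e* and −1.74 to 0.52 for *Cd8a* over *Cd4*. *Prf1* and *Gzmb* over *Cd8a* kept their direction there (−1.80 to −0.99 and −2.52 to −1.42), where the smallest exact p allowed was above 0.05 with 1 tumor fewer.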
